A study of Homo sapiens with 8 samples.

Results

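MYC, MYCN, MYCL1, MAX, MXD1, MXI1, MXD3, MXD4, MNT and MGA, the 10 transcription factors of the MYC, MAX and MXD network, were followed in 2 HER2-positive breast cancer cell lines treated with a HER2 inhibitor, a BET bromodomain inhibitor or both. The members were chosen by gene symbol, and all 10 were found among the 20531 genes of the deposited tables. Polyadenylated RNA was sequenced from SKBR-3 and from BT474m1, a derivative of the BT474 line, both grown in RPMI with 10% FBS. In each line 1 culture received DMSO, the solvent control, 1 received 300 nM lapatinib, 1 received 300 nM JQ1 and 1 received 300 nM of each drug together. All 8 cultures were treated for 48 h by their labels, which were followed, and a figure legend of the study gives the same time for SKBR-3, although its methods describe a shorter drug treatment in general. With 1 library in each of the 8 groups, no difference between 2 groups has a replicate check or a test. A model that pools the lines and drugs over the 8 libraries was not fitted.

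MYC, MYCN and MYCL1 (now named MYCL) are basic helix-loop-helix factors that bind DNA as partners of MAX at E-boxes and raise genes of ribosome production, metabolism and growth. The MXD proteins, MXI1, MNT and MGA also pair with MAX at E-boxes, and they lower transcription. The MXD proteins, MXI1 and MNT do so through corepressors such as SIN3 and histone deacetylases, and MGA does so in a Polycomb complex. The network is therefore described as a balance between activators and repressors that share 1 partner. Lapatinib blocks the kinases HER2 and EGFR, and JQ1 belongs to the BET bromodomain inhibitors, a class known to lower MYC in many cancer cells. HER2 signalling activates AKT, which keeps FOXO transcription factors out of the nucleus, and MXI1 is known as a FOXO target.

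Expression is given in normalised read counts, in which the authors set the upper quartile of the genes above 0 to 1000. Between 21420115 and 34112381 reads fell on genes, and 1 read was worth 0.471 to 0.766 units. ERBB2 and GRB7 of the HER2 amplicon lay at 5154 or above in every library. The 6 luminal epithelial markers were all at 1779 or above in BT474m1, whereas CDH1 lay between 2.58 and 15.1 in SKBR-3. ESR1 and PGR lay at 16.8 or below in SKBR-3 and between 189.9 and 12466 in BT474m1. Of 12 markers of leukocytes, fibroblasts and endothelium, 8 lay at 8.02 or below in all 8 libraries, among them PTPRC, CD3E, COL1A2, COL3A1 and PECAM1. The 4 that reached 100 anywhere were CD68 (at most 407), COL1A1 (at most 1253), VWF (at most 153) and CDH5 (at most 126).

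All 10 members passed the filter, a value of 10 in at least 1 library, which kept 14429 genes. A gene was called raised or lowered where it changed at least 2-fold on the log2(value + 1) scale. With lapatinib, 2 members were raised and 1 was lowered in SKBR-3, beside 11.1% and 9.44% of all genes kept, and 4 were raised (3 under the median-of-ratios scaling) and 1 was lowered in BT474m1, beside 14.0% and 8.06%. With JQ1, no member was called in SKBR-3, where 3.75% of genes were raised and 11.8% were lowered. In BT474m1 JQ1 raised none and lowered 2, beside 4.81% and 11.8%, but 2 were raised and 1 was lowered under the median-of-ratios scaling, and 1 was lowered with a pseudocount of 10. With both drugs, 3 members were raised (4 under the median-of-ratios scaling) and 1 was lowered in SKBR-3, beside 10.8% and 20.8%, and 4 were raised and 2 were lowered in BT474m1, beside 14.2% and 15.3%. The median change with lapatinib was 0.78 over the 9 members above the floor of 3 reads in SKBR-3 and 0.45 over all 10 in BT474m1, and that of all genes kept was 0.05 and 0.07. A single gene is 10% of the members. In bulk RNA, fewer cells with a transcript and less of it in each cell cannot be told apart.

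**Figure D1:**
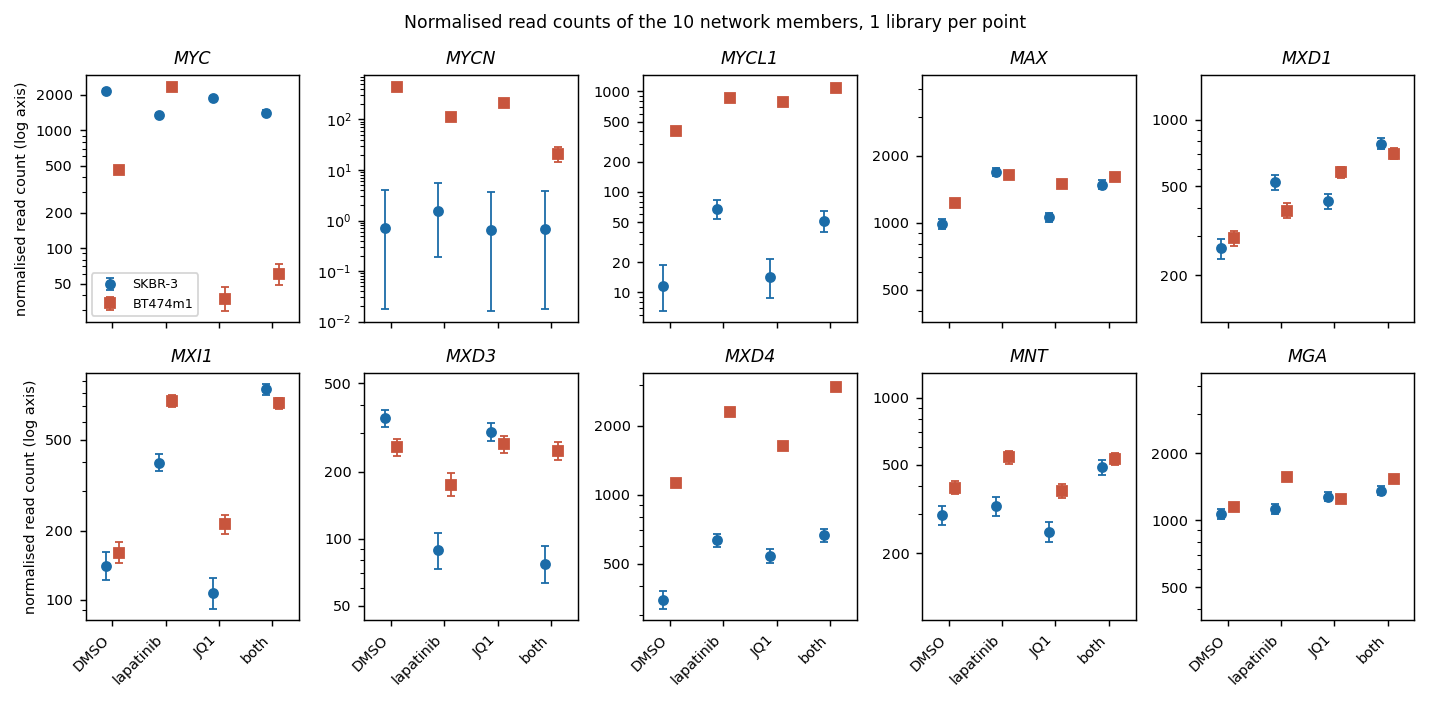
Normalised read counts (log axes) of the 10 members with DMSO, lapatinib, JQ1 or both drugs in SKBR-3 (circles) and BT474m1 (squares); each point is 1 library and each bar its 95% counting interval. MYC in BT474m1 spans 37.2 to 2312, whereas MAX and MGA stay between 989 and 1697 in both lines.

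Among the activators, MYC went opposite ways in the 2 lines with lapatinib and was lowest of all in BT474m1 with JQ1. MYC (GRCh38, chr8:127735434-127742951, plus strand) stood at 2143 normalised read counts in DMSO-treated SKBR-3, 1349.9 after lapatinib, 1879 after JQ1 and 1416 after the combination. The 4 libraries of SKBR-3 were therefore all high, with the DMSO library highest. In BT474m1 the same libraries had 463, 2312, 37.2 and 60.1. The lapatinib library of BT474m1 had the highest MYC of all 8, and the 2 JQ1-treated libraries had the lowest.

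The log2 change of MYC with lapatinib was −0.67 in SKBR-3 (95% counting interval −0.75 to −0.58) and 2.32 in BT474m1 (2.22 to 2.42), and only the second passed 2-fold. These intervals, like the later ones of single genes, are exact Clopper-Pearson intervals on the recovered reads of the 2 libraries and cover counting error only. With JQ1 alone the change was −0.19 (−0.26 to −0.12) in SKBR-3 and −3.60 (−3.99 to −3.30) in BT474m1, a 12.4-fold fall. JQ1 added to lapatinib left MYC within counting error in SKBR-3, with a difference of 0.07 (−0.02 to 0.16). Under the median-of-ratios scaling that difference was 0.23, outside this interval and still under 2-fold. In BT474m1 JQ1 added to lapatinib lowered MYC 38.5-fold, a log2 change of −5.24 (−5.56 to −4.98). Lapatinib added to JQ1 gave −0.41 in SKBR-3 and 0.68 (0.25 to 1.14) in BT474m1, again opposite in sign. The lines thus showed opposite signs in both contrasts that add lapatinib, and the same sign with JQ1 alone, where the sizes were far apart. With 1 library per group the difference between the lines was not tested.

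PVT1, the long noncoding RNA gene next to MYC, had 61.6, 34.5, 25.8 and 16.5 normalised read counts in SKBR-3 with DMSO, lapatinib, JQ1 and both drugs, and 49.98, 150.0, 10.1 and 18.7 in BT474m1. Its order in BT474m1 was that of MYC, highest with lapatinib and lowest with JQ1. In SKBR-3 PVT1 fell by 1.22 on the log2 scale with JQ1, where MYC was under 2-fold.

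MYCN (chr2:15940550-15947004, plus strand), the family member best known from neuroblastoma and not widely expressed in adult epithelium, was a BT474m1 transcript. It rested on 1 or 2 reads in each SKBR-3 library, at or under the floor of 3 reads, so that no change is given there. In BT474m1 it had 436 normalised read counts in the DMSO library, 113 after lapatinib, 216 after JQ1 and 21.0 after the combination. All 3 treated libraries lay below DMSO, and their counting intervals did not overlap. The log2 change was −1.94 with lapatinib (−2.19 to −1.72), −1.01 with JQ1 (−1.18 to −0.85), a call lost under the median-of-ratios scaling and with a pseudocount of 10, and −4.31 with both (−4.90 to −3.90). The BT474m1 library with lapatinib thus had less MYCN and more MYC than the DMSO library. Whether the same cells changed in both was not observed in bulk RNA. Its antisense neighbour MYCNOS reached at most 3.77 units, and whether reads of their 98 shared exon bases were counted for MYCN was not tested.

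MYCL1 (chr1:39895428-39901917, minus strand), first found amplified in small cell lung cancer, rose with lapatinib in both lines from very different levels. In SKBR-3 it had 11.5 normalised read counts in the DMSO library, 67.4 after lapatinib, 14.2 after JQ1 and 50.9 after the combination. The 2 lapatinib-treated libraries stood above the other two. In BT474m1 the values were 399, 869.9, 781 and 1087, and every drug-treated library was above DMSO. The log2 change with lapatinib was 2.46 (1.78 to 3.43) in SKBR-3, where the DMSO value rests on 16 reads, and 1.121 (0.9998 to 1.25) in BT474m1. With JQ1 it was 0.29 (−0.69 to 1.33) in SKBR-3 and 0.97 (0.85 to 1.09) in BT474m1, just under the 2-fold line.

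MAX (chr14:65006101-65102695, minus strand), the common partner, had 989, 1697, 1058 and 1484 normalised read counts in SKBR-3 with DMSO, lapatinib, JQ1 and both drugs. In BT474m1 the values were 1227, 1640.4, 1499 and 1601. The lapatinib-treated libraries were the highest in both lines, by 0.78 (0.68 to 0.88) in SKBR-3 and 0.42 (0.34 to 0.50) in BT474m1 with lapatinib alone, and no change of MAX reached 2-fold. MAX shares exon bases with FNTB on the other strand, and whether reads were counted by strand is not given in the sources used here. FNTB lay between 393 and 759.9 units.

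Among the repressors, MXI1 had the largest single change against DMSO. MXI1 (GRCh38, chr10:110207605-110287365, plus strand) had 141 normalised read counts in DMSO-treated SKBR-3, 397 after lapatinib, 107 after JQ1 and 829.6 after the combination. BT474m1 had 161, 738, 214 and 722. The 4 libraries with lapatinib were the 4 highest, and the lowest of them lay above all 4 without it. The log2 change with lapatinib was 1.49 (1.26 to 1.74) in SKBR-3 and 2.19 (2.02 to 2.38) in BT474m1. JQ1 alone gave −0.40 (−0.71 to −0.09) in SKBR-3 and 0.41 (0.20 to 0.62) in BT474m1. Added to lapatinib, JQ1 raised MXI1 a further 2.09-fold in SKBR-3, by 1.06 (0.91 to 1.21) on the log2 scale. In BT474m1 that difference was −0.03 (−0.15 to 0.08).

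MXD1 (chr2:69915109-69942945, plus strand), the first of the MXD proteins to be described and known for its rise as cells differentiate, was highest with both drugs in both lines. It had 263, 522, 429 and 779 normalised read counts in SKBR-3, and 293, 389, 581 and 700.3 in BT474m1, with DMSO, lapatinib, JQ1 and both. Every drug-treated library was above its DMSO library. The combination gave log2 changes of 1.56 (1.39 to 1.74) in SKBR-3 and 1.26 (1.117 to 1.40) in BT474m1. Single drugs stayed under 2-fold, with the larger of the changes, 0.98 for lapatinib in SKBR-3 and 0.99 for JQ1 in BT474m1, close to the line. The end of MXD1 shares 237 exon bases with SNRNP27 on the same strand, whose values lay between 364 and 634.

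MXD4 (chr4:2247432-2262109, minus strand), another member of this repressor class, was the most abundant of the 5 MXD and MNT repressors per length in BT474m1. It had 348, 632, 541 and 664 normalised read counts in SKBR-3 with DMSO, lapatinib, JQ1 and both drugs, and 1124, 2301, 1632 and 2964 in BT474m1. DMSO was the lowest library in both lines and the 2 drugs together the highest. The log2 change with lapatinib was 0.86 (0.70 to 1.03) in SKBR-3 and 1.03 (0.96 to 1.11) in BT474m1, and with both drugs 0.93 (0.77 to 1.09) and 1.40 (1.33 to 1.47). Under the median-of-ratios scaling the change with lapatinib in BT474m1 was 0.98 and that with both drugs in SKBR-3 was 1.07, so that the first call is lost and the second gained.

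MNT (chr17:2384073-2401060, minus strand), a repressor present in both resting and growing cells, had 297, 325, 250 and 488 normalised read counts in SKBR-3 with DMSO, lapatinib, JQ1 and both drugs, and 396, 541, 381 and 531 in BT474m1. It never reached 2-fold against DMSO. Its largest change against DMSO was 0.71 (0.54 to 0.89), after the combination in SKBR-3, and JQ1 alone gave −0.25 (−0.45 to −0.05) there. MGA (chr15:41621224-41769940, plus strand), a very large protein that brings MAX into a Polycomb complex, had 1064, 1126, 1273 and 1355 in SKBR-3 and 1142, 1557, 1249.8 and 1525 in BT474m1. Its changes against DMSO lay between 0.08 and 0.45, the narrowest range of the 10 members.

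Since MXI1 is a known FOXO target and the network binds E-boxes, the 250 bases upstream of RefSeq gene starts (GRCh38.p14) were searched on both strands for the E-box CACGTG and for the forkhead motifs GTAAACA and GTCAACA. MAX, MXI1 and MGA had more than 1 start, and 9 of the 10 members, all but MYC, had a window, 14 windows in all. The E-box was in 2 of these 14, those of MXD4 and MNT, and in 6.34% of the 35116 windows of all genes searched. A forkhead motif was in 2, those of MXD4 and of the second MXI1 start, beside 4.84% of all windows. The 3 windows are given because they belong to repressors described above, with the motifs in capitals on the strand of the gene. In the MXI1 window the capitals are GTAAACA read on the opposite strand. A match describes letters, not binding.
MXD4 (chr4:2262110-2262359, minus strand): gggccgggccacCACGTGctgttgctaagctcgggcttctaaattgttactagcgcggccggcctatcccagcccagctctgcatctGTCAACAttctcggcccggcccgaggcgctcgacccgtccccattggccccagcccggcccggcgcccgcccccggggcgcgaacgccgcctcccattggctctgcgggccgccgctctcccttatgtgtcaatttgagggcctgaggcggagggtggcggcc
MNT (chr17:2401061-2401310, minus strand): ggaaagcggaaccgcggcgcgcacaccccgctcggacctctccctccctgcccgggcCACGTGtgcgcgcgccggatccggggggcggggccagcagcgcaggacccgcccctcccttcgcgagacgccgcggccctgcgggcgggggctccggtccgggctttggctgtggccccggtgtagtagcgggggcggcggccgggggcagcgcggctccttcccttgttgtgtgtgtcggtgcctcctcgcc
MXI1 (chr10:110209981-110210230, plus strand): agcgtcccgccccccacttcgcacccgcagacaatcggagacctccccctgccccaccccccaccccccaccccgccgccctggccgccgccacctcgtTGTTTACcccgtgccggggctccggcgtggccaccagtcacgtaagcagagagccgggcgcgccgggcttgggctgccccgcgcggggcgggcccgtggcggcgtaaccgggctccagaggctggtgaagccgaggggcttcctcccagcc

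The E-box of MXD4 begins 238 bases before the start and its forkhead motif 163, the E-box of MNT 193, and the forkhead motif of MXI1 151. Of the genes with a forkhead motif here, MXI1 was raised by lapatinib in both lines. MXD4 was at the 2-fold line in BT474m1 and under it in SKBR-3 (0.86). MYCL1, whose window holds neither motif, was raised by lapatinib in both lines. Whether these motifs have a part in the changes was not tested.

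MXD3 (chr5:177305499-177312752, minus strand), a repressor known for its expression in dividing cells, was the only repressor called lowered in a contrast against DMSO. It had 348 normalised read counts in DMSO-treated SKBR-3, 88.8 after lapatinib, 301 after JQ1 and 76.8 after the combination. The lapatinib-treated libraries were both well below the others. In BT474m1 it had 258, 175, 266 and 249, and the lapatinib library alone was lowest. The log2 change with lapatinib was −1.96 (−2.28 to −1.68) in SKBR-3 and −0.55 (−0.77 to −0.35) in BT474m1. MXD3 was the 1 member with fractional read numbers in all 8 libraries. It shares 926 exon bases with RAB24 and 1148 with PRELID1, and its values are uncertain. RAB24 moved the other way, with 162 and 243 in SKBR-3 and 504 and 943 in BT474m1 with DMSO and lapatinib. PRELID1 had 2019.9 and 1088 in SKBR-3 and 2339 and 1442 in BT474m1 in the same libraries. How far the division of reads between these genes sets the MXD3 values was not tested.

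**Figure D2:**
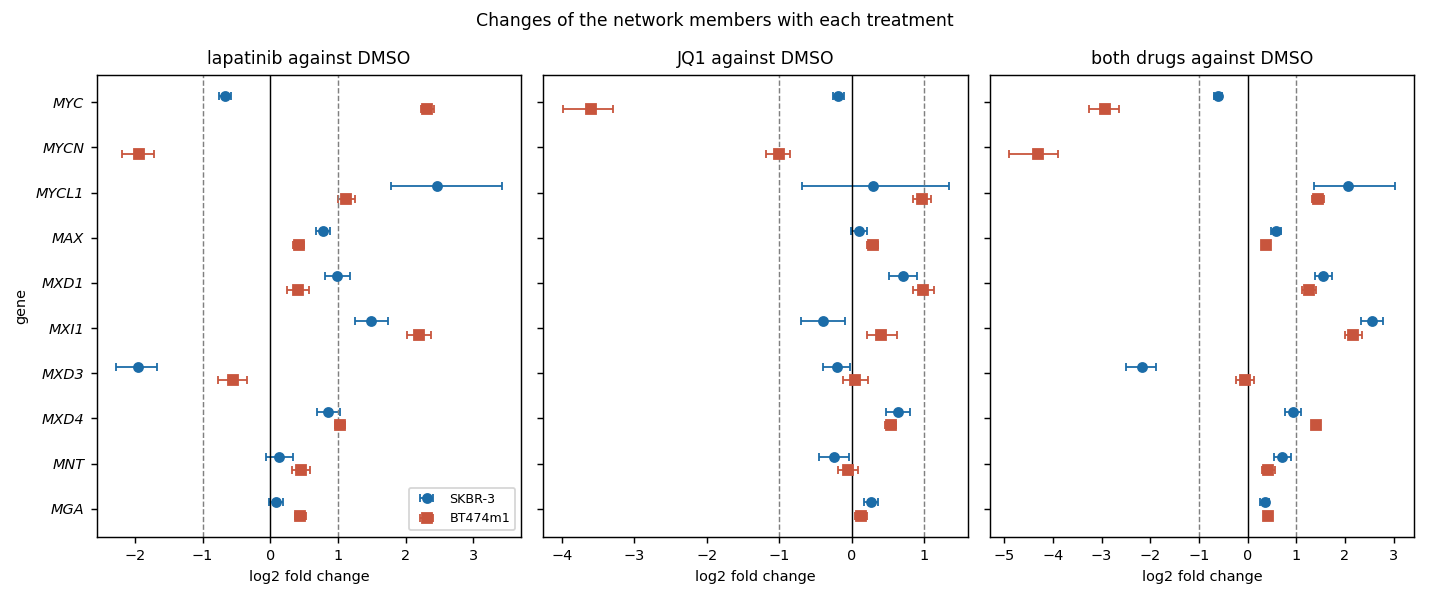
Log2 fold changes of the 10 members with lapatinib, JQ1 or both drugs against DMSO in SKBR-3 (circles) and BT474m1 (squares), with 95% counting intervals; dashed lines mark 2-fold, and MYCN in SKBR-3 is left out since all its libraries are at the floor. With lapatinib MYC lies at −0.67 in SKBR-3 and at 2.32 in BT474m1, whereas MXI1 lies above 1 in both lines.

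The order of the levels was compared per kilobase of the canonical transcript. With DMSO in SKBR-3 MYC led with 576 normalised read counts per kilobase, followed by MAX with 492 and MXD3 with 326, and the counting intervals of these 3 did not overlap. MXD4 and MGA, with 89.9 and 87.2, did not differ beyond counting error, and neither did MXD1 and MXI1, with 47.5 and 40.6. MYCL1 and MYCN were last with 3.25 and 0.274. In BT474m1 with DMSO the order was different. MAX led with 610.3, MXD4 had 290.5 and MXD3 had 241, and MYCN with 167 came before MYC with 124 and MYCL1 with 113, of which the last 2 had overlapping intervals. This order depends on the transcript length used. With the mean length of the coding transcripts, chosen after seeing the data, MYC (246) came before MXD3 (229.8) and MYCN (202) in BT474m1, and MXD4 (89.9) came after MGA (135) and MNT (107) in SKBR-3.

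Between the lines with DMSO, 3 members were higher in BT474m1 and 1 was lower, beside 26.8% and 15.6% of the genes kept. The median difference over all genes kept was 0.21, which scaling by the median of ratios moved to 0.06. The log2 difference of MYC, BT474m1 minus SKBR-3, was −2.21 (−2.32 to −2.11), or 4.63-fold. MXD4 was higher by 1.69 (1.55 to 1.84) and MYCL1 by 5.01 (4.42 to 5.94). For MYCN 924 reads in BT474m1 stood against 1 read in SKBR-3, a ratio of 609 with a counting interval of 109 to 24067. The other 6 members differed by at most 0.43 in size, MXD3 (−0.43), MNT (0.41) and MAX (0.31) by the most. These counts are near the shares over all genes. Only MXD1 and MXI1 had counting intervals that include no difference.

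The makeup of the activators MYC, MYCN and MYCL1 differed between the lines. In SKBR-3 MYC made up 94.8% to 99.4% of the sum per kilobase in all 4 libraries. In BT474m1 with DMSO the sum was shared, with 30.7% from MYC, 41.2% from MYCN and 28.0% from MYCL1, or 39.4%, 32.4% and 28.3% with the mean coding lengths. MYC took 68.2% with lapatinib, and MYCL1 took 70.5% with JQ1 and 92.7% with both drugs. The sum itself was 404 in the DMSO library, 911 after lapatinib, 314 after JQ1 and 333 after the combination, so that the 12.4-fold fall of MYC with JQ1 went with a sum at 0.777 of DMSO.

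The repressors MXD1, MXD3, MXD4, MXI1 and MNT together had 564, 521, 581 and 722 normalised read counts per kilobase in SKBR-3 with DMSO, lapatinib, JQ1 and both drugs. In BT474m1 they had 711, 1151, 914 and 1441, highest with both drugs as in SKBR-3. With the mean coding lengths the SKBR-3 sum was 646 with DMSO and 696 with lapatinib, the opposite order. MXD3 made up 57.8% of the sum with DMSO in SKBR-3 and 9.97% with both drugs, where MXI1 led with 33.1%. With lapatinib in SKBR-3 each of the other repressors lay above DMSO, MNT within counting error. The lower sum with lapatinib there, by canonical lengths, thus rests on MXD3. In BT474m1 MXD4 led in all 4 libraries, with 40.8% to 53.1%. The makeup of the repressors therefore differed between the lines. It changed most in SKBR-3, where the largest shift was that of MXD3. The values of MXD3 are uncertain, as described above, and so are the sums and shares that include it.

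**Figure D3:**
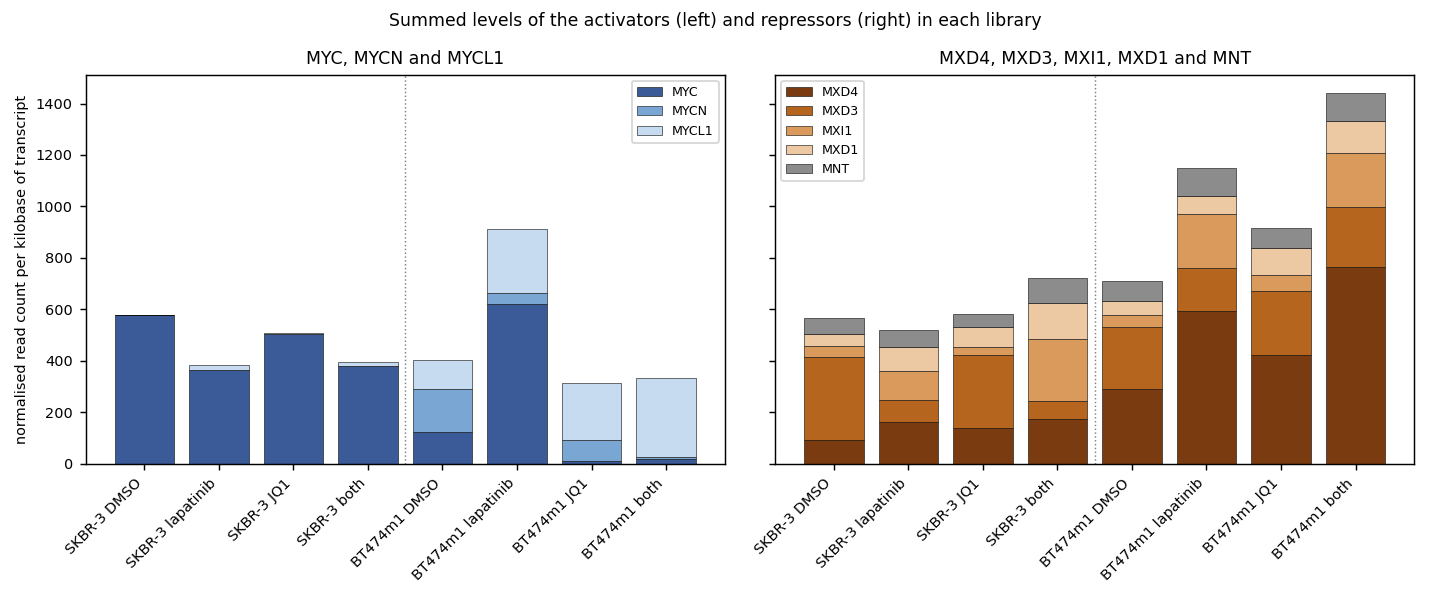
Normalised read counts per kilobase of canonical transcript in each of the 8 libraries, stacked for MYC, MYCN and MYCL1 (left) and for MXD4, MXD3, MXI1, MXD1 and MNT (right). MYC fills nearly the whole left bar in SKBR-3 and 3.18% of it in BT474m1 with JQ1, and the highest repressor bar is BT474m1 with both drugs at 1441.

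MYC relative to these 5 repressors, both per kilobase, was 1.02 in DMSO-treated SKBR-3, 0.696 after lapatinib, 0.869 after JQ1 and 0.527 after the combination. In BT474m1 the same libraries had ratios of 0.175, 0.540, 0.0109 and 0.0112. With the mean coding lengths the ratios with DMSO were 1.76 in SKBR-3 and 0.300 in BT474m1, so that the levels rest on the lengths chosen. On the log2 scale the change from DMSO was −0.55 (−0.68 to −0.42), −0.23 (−0.36 to −0.10) and −0.95 (−1.08 to −0.83) in SKBR-3 with lapatinib, JQ1 and both. In BT474m1 it was 1.63 (1.51 to 1.75), −3.998 (−4.34 to −3.66) and −3.96 (−4.26 to −3.66). These intervals of ratios are normal approximations to the counting error. The ratio thus moved toward the repressors with every treatment in SKBR-3, and toward MYC in 1 treatment of BT474m1. Without MXD3, whose values are uncertain, the changes in SKBR-3 were −1.54, −0.52 and −2.05, and the sign was the same in all 6 treated libraries.

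With MYCN and MYCL1 added to MYC, the ratio in BT474m1 was 0.569 in the DMSO library, 0.792 after lapatinib, 0.344 after JQ1 and 0.231 after the combination, a far narrower range. In SKBR-3 it was 1.03, 0.734, 0.876 and 0.547. Counted this way, DMSO was the highest library in SKBR-3 and the combination was the lowest in both lines. All these partners summed, relative to MAX per kilobase, gave 2.33, 1.07, 2.07 and 1.51 in SKBR-3 with DMSO, lapatinib, JQ1 and both drugs, and 1.83, 2.53, 1.65 and 2.23 in BT474m1. Lapatinib gave the lowest of these values in SKBR-3 and the highest in BT474m1.

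The combination of drugs was compared with the sum of the single-drug log2 changes. In SKBR-3 MXI1 was the only member at least 2-fold above that sum, with 2.55 against 1.09, a departure of 1.46 ± 0.33 (95% counting half-width, normal approximation), and none was below, beside 3.90% of genes above and 7.58% below. MNT came next at 0.83 ± 0.26. In BT474m1 none was above and 2 were below, beside 4.72% and 4.73%. MYC departed by −1.64 ± 0.44 and MYCN by −1.36 ± 0.54, both lower with the combination than the single drugs sum to. With JQ1 present, MYC thus stayed under DMSO in BT474m1 despite lapatinib, and MYCN fell with both drugs further than with either.

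**Figure D4:**
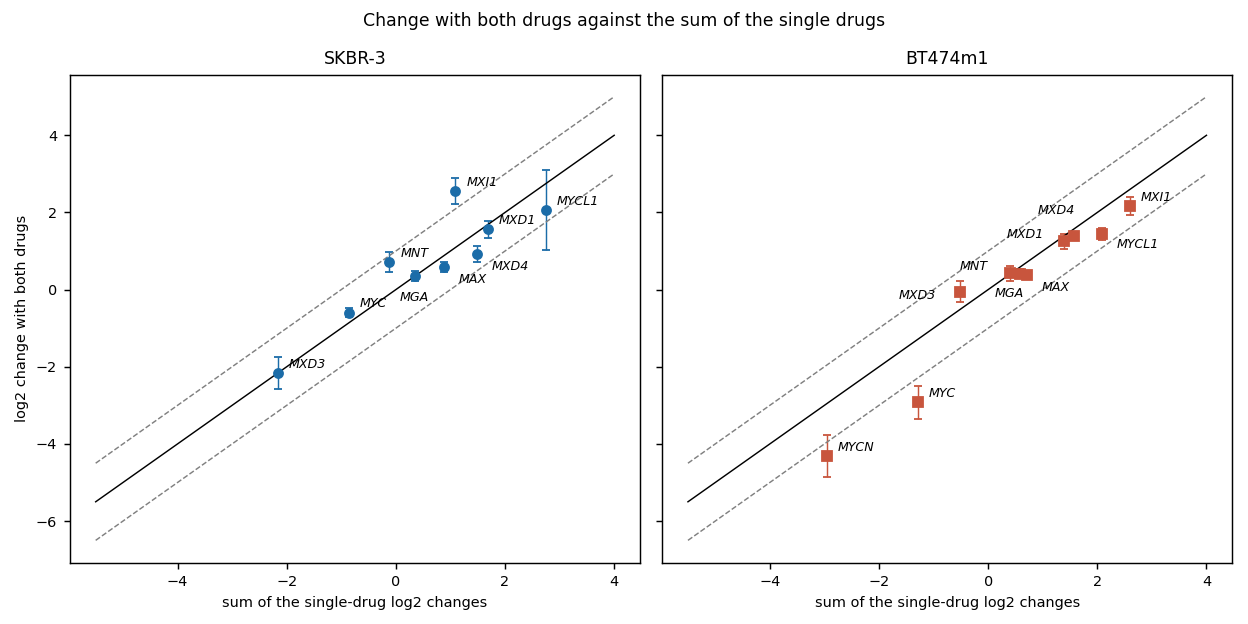
Log2 change of each member with both drugs (vertical) against the sum of its changes with lapatinib and with JQ1 (horizontal) in SKBR-3 (left) and BT474m1 (right); bars are 95% counting half-widths of the departure, the solid line marks equality and dashed lines 2-fold, and MYCN is left out of SKBR-3, where it is at the floor. MXI1 lies above the upper dashed line in SKBR-3, and MYC and MYCN lie below the lower one in BT474m1.

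Compared with lapatinib alone, both drugs raised 1 member (MXI1) and lowered none in SKBR-3, beside 3.22% and 16.2% of genes. In BT474m1 they raised none and lowered 2 (MYC and MYCN), beside 5.20% and 12.5%. Compared with JQ1 alone, both drugs raised 2 (MXI1 and MYCL1, and MNT as well under either other scaling) and lowered 1 (MXD3) in SKBR-3, beside 9.79% and 12.3%. In BT474m1 they raised 1 (MXI1) and lowered 1 (MYCN), beside 12.4% and 7.27%. MXI1 was the member raised in both lines when lapatinib was added to JQ1, by 2.94 (2.72 to 3.198) in SKBR-3 and 1.75 (1.60 to 1.92) in BT474m1. These contrasts share libraries with those against DMSO.

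The other genes of the network were read from lists of their own. MLX, the MAX-like factor, had 596, 437, 420.3 and 280.1 normalised read counts in SKBR-3 with DMSO, lapatinib, JQ1 and both drugs, and was lowered by the combination (−1.09), a call that is lost when libraries are scaled by the median of ratios. In BT474m1 it had 905, 668, 764 and 576, with no change of 2-fold. Its glucose-sensing partner MLXIP changed by at most 0.81 in size against DMSO in either line, and MLXIPL by at most 0.97. TXNIP, a target of that pair that limits glucose uptake, was raised with lapatinib in both lines (2.81 in SKBR-3, 1.83 in BT474m1) and by the combination (4.05 and 2.34). ARRDC4, its relative and another such target, was raised with lapatinib in BT474m1 (1.41) and had 0.79 in SKBR-3. With JQ1 alone 1 of these 5 genes was raised in SKBR-3 and 0 in BT474m1, beside 3.75% and 4.81% of all genes kept.

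Of 12 MYC coactivators, KAT2B was raised with lapatinib in SKBR-3 (1.06) and KAT2A (−1.09) and ACTL6A (−1.16) were lowered, with a median of −0.55, and none was called in BT474m1 (median −0.23). Over all genes kept, 11.1% were raised and 9.44% were lowered with lapatinib in SKBR-3 and 14.0% and 8.06% in BT474m1, so that the lapatinib counts of these 12 are near the background. KAT2A, the GCN5 acetyltransferase, was the only one of the 12 lowered in both lines in any contrast within a line, when JQ1 was added to lapatinib (−1.16 in SKBR-3, −1.17 in BT474m1), and the SKBR-3 call is lost under the median-of-ratios scaling. That contrast lowered 1 of the 12 in SKBR-3 and 2 in BT474m1, beside 16.2% and 12.5% of all genes kept, which is near the background. Of 14 subunits of the SIN3 and histone deacetylase corepressors, none was called in SKBR-3 against DMSO with any treatment, where both drugs raised 10.8% and lowered 20.8% of all genes kept. In BT474m1 SIN3B (1.28) and ARID4A (1.05) were raised and ING2 (−1.27) was lowered with lapatinib, with a median of −0.22. Of 11 partners of MGA in its Polycomb complex, TFDP1 was lowered with lapatinib in SKBR-3 (−1.04) and none was called in BT474m1. In this and the next paragraphs, genes called in 1 line only were named after their values were seen.

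Of 15 genes for the turnover of MYC protein, AURKA and KIAA1524 were lowered with lapatinib in both lines, and SKP2, a ubiquitin ligase subunit, in SKBR-3 (−1.10). That is 3 of 15 in SKBR-3 and 2 of 15 in BT474m1, beside 9.44% and 8.06% of all genes kept, and none was raised. AURKA, a mitotic kinase that also stabilises MYCN protein, had log2 changes of −3.23 in SKBR-3 and −3.54 in BT474m1 with lapatinib, and of −1.08 and −1.21 with JQ1, of which the call in SKBR-3 is lost under the median-of-ratios scaling. KIAA1524, now named CIP2A, an inhibitor of the phosphatase that destabilises MYC, had −3.30 and −4.17 with lapatinib. Both are also genes of dividing cells. The 11 proliferation genes were all lowered with lapatinib in both lines, with medians of −3.59 in SKBR-3 and −4.82 in BT474m1, beside medians of 0.05 and 0.07 over all genes kept, of which 9.44% and 8.06% were lowered. RRM2, a subunit of ribonucleotide reductase, had −4.22 and −7.09 and MKI67, the Ki-67 antigen, −3.97 and −5.62. Their part in the changes of the network was not tested.

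Of 34 genes that MYC is known to raise, mostly of ribosome production, 33 passed the filter. With lapatinib 15 were lowered and none was raised in SKBR-3, with a median of −0.99, and all 33 were below 0. In BT474m1, where MYC rose, 2 were lowered and none was raised, with a median of −0.36, and 6 of the 33 were above 0. With JQ1 none was called in either line, with medians of −0.21 and −0.26, beside 11.8% of all genes kept lowered in each line and 3.75% and 4.81% raised. In the BT474m1 library with JQ1 MYC was lowered 12.4-fold and the summed activators were at 0.777 of DMSO. With both drugs 17 were lowered in SKBR-3 (median −1.02) and 9 in BT474m1 (median −0.66). Over all genes kept, 9.44% and 8.06% were lowered with lapatinib and 20.8% and 15.3% with both drugs in SKBR-3 and BT474m1, so that the 2 genes lowered with lapatinib in BT474m1 are no more than the background. The median over all genes kept lay between −0.08 and 0.07 in these 6 contrasts.

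ODC1, the first enzyme of polyamine synthesis and a classical MYC target, was lowered with lapatinib, with log2 changes of −2.10 in SKBR-3 and −2.32 in BT474m1. TCOF1, which supports transcription of ribosomal RNA, had −1.75 and −1.203 with lapatinib, and −2.42 and −1.87 with the combination. The combination also lowered SRM, the spermidine synthase (−1.49 and −1.65), and MRTO4, a ribosome assembly factor (−1.79 and −1.46). ODC1 and TCOF1 were thus lowered with lapatinib in BT474m1 too, where MYC and the summed activators were higher. With the combination the proliferation genes had medians of −6.17 and −4.47, and with JQ1 alone none of the 11 was lowered in SKBR-3 and 4 were in BT474m1, beside 11.8% of all genes kept in each line. Their part in the values of the MYC-induced genes was not tested.

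**Figure D5:**
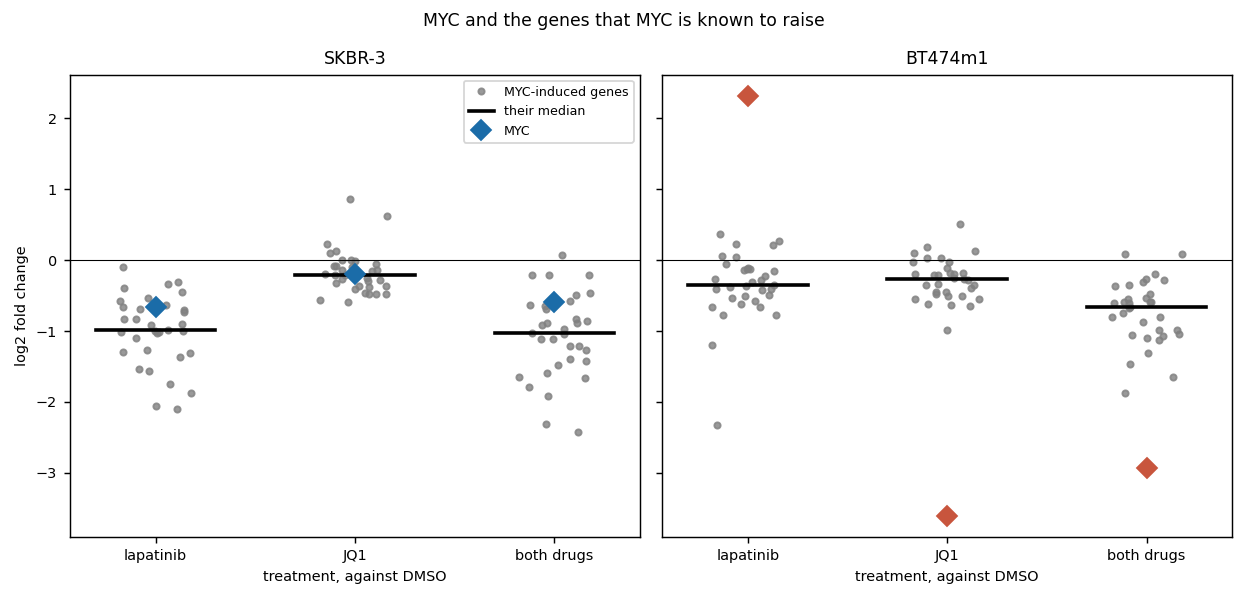
Log2 fold changes against DMSO of MYC (diamonds) and of the 33 MYC-induced genes that passed the filter (grey points, spread sideways only for legibility; bars are medians) with each treatment in SKBR-3 (left) and BT474m1 (right). In BT474m1 MYC spans −3.60 to 2.32 while the medians of the listed genes lie between −0.66 and −0.26.

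Of 10 genes that MYC is known to lower, GADD45A was the only one called with lapatinib in SKBR-3 (1.68), and NDRG1 was raised (1.13) and CDKN1A was lowered (−1.52) in BT474m1. These counts are near the shares over all genes kept, 11.1% raised and 9.44% lowered in SKBR-3 and 14.0% and 8.06% in BT474m1. With JQ1, CDKN1A was raised and NDRG2, THBS1, CEBPA and GAS1 were lowered in SKBR-3, and CDKN1A, CDKN2B and GADD45A were raised and NDRG2 was lowered in BT474m1. Over all genes kept JQ1 lowered 11.8% in each line and raised 3.75% in SKBR-3 and 4.81% in BT474m1, and a pseudocount of 10 leaves 2 of the 4 lowered genes in SKBR-3. CDKN1A, the cell cycle inhibitor p21, had log2 changes with JQ1 of 1.96 in SKBR-3 and 1.64 in BT474m1. The combination raised 5 of the 10 in SKBR-3 (CDKN1A, CDKN1B, CDKN2B, GADD45A and FTH1; 3 with equal totals) and lowered 3 (NDRG2, THBS1 and GAS1), beside 10.8% and 20.8% of all genes kept. In BT474m1 it raised 2 (GADD45A and NDRG1) and lowered 1 (NDRG2), beside 14.2% and 15.3%. GADD45A, a stress response gene, was raised by it in both lines (2.17 and 1.10), and NDRG2 was lowered (−2.51 and −1.94). With JQ1 alone NDRG2, a differentiation-associated gene, had −3.08 in SKBR-3 (−4.88 to −2.16, a wide interval at low counts) and −2.03 in BT474m1. The median of the list was 0.45 and 0.09 with lapatinib in SKBR-3 and BT474m1, and 0.09 and 0.56 with JQ1. The mean with JQ1 in SKBR-3 was −0.52, opposite in sign to the median.

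Genes most like the 3 members with the largest changes were taken as those with the smallest root mean square difference over the 6 log2 changes against DMSO, among 9841 genes. For MXI1 these were CCDC28A (0.319), CDON (0.367) and ZNF862 (0.424). CDON, a cell surface receptor of the hedgehog pathway, changed by 2.14, 0.17 and 2.66 in SKBR-3 with lapatinib, JQ1 and both, and by 2.27, 0.52 and 1.999 in BT474m1. For MYC the nearest were RASGEF1A (0.632), COL12A1 (0.730) and SMAGP (0.970), and no gene matched it as closely as CCDC28A matched MXI1. RASGEF1A changed by 1.06, −3.17 and −3.38 in BT474m1 with lapatinib, JQ1 and both, and COL12A1, a collagen of the fibre surface, by 2.38, −2.44 and −1.70. For MYCN they were AGR2 (0.661), ITGB6 (0.734) and DUSP4 (0.804), where the 3 SKBR-3 changes of MYCN rest on 1 or 2 reads. AGR2, a secretory pathway protein of luminal cells, had −1.08, −0.95 and −4.77 in BT474m1.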

How the data were processed

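Polyadenylated RNA was sequenced from 8 cultures, 1 per group, grouped by the labels. Each gene has a signal that the authors computed with RSEM and scaled to an upper quartile of 1000 among genes above 0. The submitters' processing notes name hg19, Picard 1.88, SAMtools 1.2, RSEM, DESeq, R 3.2.2 and DESeq2 1.12.3, whereas the study's methods name hg38, STAR and Salmon, so the build and aligner of these tables are uncertain. The labels name 2 different library kits, and use of strand in counting is not given in the sources used here. Gene positions, lengths and exon overlaps are from GENCODE v44 on GRCh38 and locate genes, not reads. Promoter windows are RefSeq's.

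The value of 1 read was recovered as the common step between values. Between 83.8% and 85.2% of values above 0 were whole reads within 0.02 reads, as were 72 of the 80 member values, all but those of MXD3. Log2(value + 1) changes were computed with Python 3.11.15, numpy 2.4.6, pandas 2.3.3 and scipy 1.17.1. Genes at 10 or more in at least 1 library were kept (14429 of 20531), and a 2-fold change was called. Intervals are 95% exact Clopper-Pearson intervals for the reads of 2 libraries (for ratios and departures from additivity, normal approximations). They cover counting error only and not differences between cultures, since each group holds 1 library. PCR copies could not be recognised, so that the intervals may be too narrow even for counting error. The scripts were tested on simulated data.

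The members and the 9 gene lists were chosen with earlier results of these data known. All members are named. Of each list, the genes called the same way in both lines with the largest smaller change were named, up to 4, and all genes of lists of 5 or fewer. Of the proliferation genes only RRM2 and MKI67 were named, whose smaller changes were the largest with both drugs. Also named were the 3 genes most like each of the 3 members with the largest changes, among genes at 100 or more in at least 1 library of each line. Alternatives were another pseudocount, 2 scalings (by the median of ratios to the mean library over genes above 0 in all 8 libraries, and to equal totals), 2 filters, a call that also needs its interval to exclude no change, and other definitions of the ratio.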

Additional observations from a re-analysis of the deposited data

Results flagged for a closer look

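MYC with lapatinib changed in opposite directions in the 2 lines, by −0.67 in SKBR-3 and 2.32 in BT474m1 on the log2 scale, and both counting intervals lay away from 0. With lapatinib added to JQ1, MYC again differed in sign, at −0.41 in SKBR-3 and 0.68 in BT474m1. PVT1 with lapatinib showed the same opposition, at −0.82 and 1.57. MXI1 with JQ1 gave −0.40 in SKBR-3 and 0.41 in BT474m1, both under 2-fold. With 1 library per group these differences between the lines were not tested.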

How the results depend on the processing

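Of the 105 member changes above the floor, none called at 2-fold changed sign under a pseudocount of 10, the median-of-ratios scaling, scaling to equal totals, no filter or a filter at 100, and 101, 91, 101, 105 and 105 stayed within their counting intervals. The results of the 2 filters were fixed in advance, since a filter keeps or drops a gene and does not alter its change. In BT474m1 with JQ1, where MYCN, MYCL1 and MXD1 lay near 2-fold, the median-of-ratios scaling gave 2 members raised in place of none and 1 lowered in place of 2, and a pseudocount of 10 gave 1 lowered. The median-of-ratios scaling also took MXD4 out of the call with lapatinib in BT474m1 and into that with both drugs in SKBR-3, and MNT entered the call for lapatinib added to JQ1 in SKBR-3 under it and with equal totals. MYC-induced genes lowered with JQ1 in BT474m1 numbered 1 with equal totals and 1 without a filter. With JQ1 added to lapatinib in BT474m1 a pseudocount of 10 gave 0 raised, and the median-of-ratios scaling gave 0 lowered. Without a filter 1 was higher in BT474m1 than in SKBR-3. Equal totals moved the median of all genes in SKBR-3 with JQ1 to −0.22, and MAX there to −0.05 from 0.10. Median-of-ratios scaling moved it from −0.11 to 0 with JQ1 added to lapatinib in SKBR-3 and from 0.21 to 0.06 between the lines, where MGA went to −0.05.

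The log2 change of the ratio of MYC to the repressors kept its sign in all 6 treated libraries. With MYCN and MYCL1 added it was 0.48, −0.73 and −1.30 in BT474m1 with lapatinib, JQ1 and both. With mean coding transcript lengths, chosen after seeing the data, it was −0.77 and −1.28 in SKBR-3 with lapatinib and both. Without MXD3, also chosen after seeing the data, it was −1.54, −0.52 and −2.05 in SKBR-3, and 1.25 with lapatinib and −4.31 with both in BT474m1. Adding MGA or leaving out MNT moved none of these 6 changes beyond its counting interval, but moved the log2 ratio itself by over 0.1 in all 8 libraries, as did the mean coding lengths. No paired analysis was possible because the groups compared hold 1 library each and share fewer than 2 replicate numbers, and no replicate could be left out. An additive model over line, lapatinib and JQ1 was not run. Depth limits MYCN in SKBR-3, at 1 or 2 reads, and MYCL1 there, at 16 reads with DMSO.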
